A study of Rattus norvegicus with 8 samples.

Results

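Expression of the sterol regulatory element binding protein (SREBP) pathway was examined in rat thymocytes treated with dexamethasone. The list held 36 genes of the 35561 gene names on the array, and every probe whose gene name matched the list was read, with the suffix for predicted genes removed. The genes were ordered by role into 5 regulators, 17 enzymes of cholesterol synthesis, 10 enzymes of fatty acid synthesis, and 4 genes of the liver X receptor (LXR) and cholesterol efflux. Primary thymocytes, the immature T lymphocytes of the thymus, came from adrenalectomized male Sprague-Dawley rats, with the thymi of 3 rats pooled in serum-containing culture medium. Culture lasted 6 hours, in plain medium for Control and with dexamethasone, a synthetic glucocorticoid, at 100 nM for Dex. Adrenalectomy, which removes the animal's own source of glucocorticoid, was shared by both groups. Messenger RNA was measured on 1-color Agilent Whole Rat Genome arrays, 4 for Control and 4 for Dex, while the paper states 3 biological replicates and its text does not name the arrays used, so all 8 were analyzed. The age of the rats is not given in the sources used here, and if some arrays repeat 1 preparation, the p-values cover only technical spread.

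SREBPs are transcription factors that are made as inactive proteins of the endoplasmic reticulum membrane. When sterols are low, the escort protein SCAP carries them to the Golgi, where proteases release the part that enters the nucleus, and the INSIG proteins retain SCAP when sterols are plentiful. SREBP-1, the product of Srebf1, is best known for fatty acid synthesis genes and SREBP-2, the product of Srebf2, for cholesterol synthesis genes, while LXRs sense oxidized sterols and can induce Srebf1. Cleavage of the proteins was not measured here, and only mRNA levels were read.

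Srebf1 was the gene with the largest change on the list, and 1 of its 2 clearly detected probes is shown to identify the transcript measured. Its 60 bases spread over 517 bases of chromosome 10 (rn3, chr10:46477093-46477609) and so cross at least 1 intron. It is written 5′ to 3′ in lower case because no motif was searched in it.
Srebf1 probe A_44_P501142: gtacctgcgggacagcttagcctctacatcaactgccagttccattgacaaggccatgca

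Promoter sequences are shown for Srebf1, which rose, and for Idi1 and Sc4mol, 2 cholesterol synthesis genes with all Dex arrays below all Control arrays. RefSeq promoter windows (GRCr8, 250 bases before and 50 bases after a start site) were found for 29 of the 36 genes, 30 windows in all. Fasn, Acaca, Elovl6, Fdft1, Sqle, Pmvk and Abcg1 had none, so the motif counts do not cover them. The 250 bases before the start are printed 5′ to 3′ on the gene's strand, and capitals mark the motifs found in them, the NF-Y box CCAAT and the Sp1 box GGGCGG, on either strand. Srebf1 has a window at each of 2 start sites.
Srebf1, chr10:45529165-45529414, minus strand: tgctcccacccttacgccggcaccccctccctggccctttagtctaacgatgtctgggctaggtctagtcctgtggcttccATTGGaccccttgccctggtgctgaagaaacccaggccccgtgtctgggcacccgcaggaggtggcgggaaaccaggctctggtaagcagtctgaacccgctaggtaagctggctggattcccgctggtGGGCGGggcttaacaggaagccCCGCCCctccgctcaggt
Srebf1, chr10:45519011-45519260, minus strand: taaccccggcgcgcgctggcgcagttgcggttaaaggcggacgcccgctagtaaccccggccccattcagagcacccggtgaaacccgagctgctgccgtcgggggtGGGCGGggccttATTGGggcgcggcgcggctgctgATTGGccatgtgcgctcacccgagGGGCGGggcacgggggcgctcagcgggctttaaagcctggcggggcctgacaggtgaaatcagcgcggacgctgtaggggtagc
Idi1, chr17:66547525-66547774, minus strand: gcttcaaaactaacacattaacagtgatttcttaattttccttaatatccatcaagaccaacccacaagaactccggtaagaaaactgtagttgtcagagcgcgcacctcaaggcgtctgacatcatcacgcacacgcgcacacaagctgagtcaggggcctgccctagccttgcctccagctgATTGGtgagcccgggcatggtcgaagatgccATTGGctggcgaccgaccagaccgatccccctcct
Sc4mol, chr16:29746863-29747112, plus strand: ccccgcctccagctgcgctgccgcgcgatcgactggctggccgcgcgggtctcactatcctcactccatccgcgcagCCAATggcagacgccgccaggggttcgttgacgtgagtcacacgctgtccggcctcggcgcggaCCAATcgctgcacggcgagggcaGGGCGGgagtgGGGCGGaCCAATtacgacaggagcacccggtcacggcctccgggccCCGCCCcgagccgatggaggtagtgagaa

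NF-Y and Sp1 are general promoter-binding factors with which SREBPs are known to act. The NF-Y box was found in 20 of the 30 windows of the list, in 11 of 14 windows of the cholesterol arm and in 4 of 7 of the fatty acid arm, against 37.5% of all 33365 windows. The Sp1 box was found in 22 of the 30, in 12 of 14 and in 4 of 7, against 33.1% of all windows. The sterol regulatory element, searched as TCACNCCAC on both strands, was found in 0 of the 30 windows and in 1.1% of all windows. The E-box CACGTG was in 5 of the 30, of which the cholesterol and fatty acid arms held 1 each, against 6.4% of all windows. The LXR direct repeat and the glucocorticoid response element, searched as full matches of a single consensus on both strands, were in 0 of the 30 and in only 2 and 5 of all windows. In the Srebf1 sequences the NF-Y boxes begin at positions -169, -131 and -108 of their windows, counted from the start site, and in Idi1 at -66 and -35. A match describes letters, and no binding was measured.

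The arrays of a group were not all alike. Between 24908 and 34472 of the 41012 probes were well above background on an array, and the lowest numbers were those of Dex 2 (24908) and Dex 1 (26471). Dex 1 and Dex 2 correlated with Dex 3 and Dex 4 at 0.919 to 0.943, whereas Control arrays correlated with each other at 0.975 to 0.990. Control 1 and Dex 3 shared a slide, the other Control arrays lay together on another slide and the other Dex arrays likewise, so slide and treatment cannot be told apart for 6 of the 8 arrays. Tsc22d3, a known glucocorticoid target that encodes GILZ, lay at 10.80 to 11.30 on the Control arrays and at 14.41 to 14.84 on the Dex arrays, and its rise was 3.59 on the log2 scale (limma adjusted p = 0.000153). All 8 thymocyte marker genes with a value on every array, of 10 listed, were above background throughout, with a summed linear signal of 57526 to 70659 in Control and 54076 to 56973 in Dex. Cd8b, the brightest marker, lacks a value on Control 1 and went the other way, at 15.81 to 16.19 on the other Control arrays and 16.42 to 16.51 in Dex (log2 fold change 0.52, adjusted p = 0.326). With it, the sum over 9 genes was 116466 to 145209 on 3 Control arrays and 142971 to 150135 on the 4 Dex arrays, so the order of the groups depends on that gene. Macrophage markers, by the same sum, gave 4366 to 6050 and 4110 to 8488. Adipocyte markers, of a tissue that uses this pathway heavily, gave 206 to 361 and 318 to 480. These sums are linear, and the largest part of each came from 1 gene. By mean log2 signal it was Cd8a (15.23) of the 8 thymocyte genes, Lyz (12.02) of the macrophage and Cfd (7.72) of the adipocyte markers. The next brightest were Cd3e (12.31), C1qb (8.91) and Adipoq (5.30). No marker of any list passed the test, and the markers given next were picked with their values in view. Mrc1, a macrophage receptor, was at 3.37 to 4.91 in Control and 5.20 to 6.81 in Dex, without overlap (log2 fold change 2.12, adjusted p = 0.087, and 0.68 after normexp background correction), while its second probe was above background on only 1 of the 4 Control arrays. The complement gene C1qb was at 0.84 (adjusted p = 0.33), and the adipocyte markers Cfd and Fabp4 were at 1.05 (adjusted p = 0.243) and 0.72 (adjusted p = 0.388). In the same lists the macrophage markers Cd14, Emr1 and Cd68 were at -0.77, -0.15 and -0.12 and the adipocyte marker Adipoq at -0.58, and the median log2 fold changes of the 8 macrophage and 6 adipocyte markers measured were 0.16 and 0.26. The part of other cell types in the Srebf1 and Fasn values was not tested. In bulk samples fewer cells of a type and less RNA per cell cannot be told apart.

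Dexamethasone treatment was followed by higher Srebf1 and Fasn mRNA, and no other gene of the list passed the test. Both rose, 34 did not pass, and 0 fell past the threshold. Values are normalized log2 signals, a change is the mean of the 4 Dex arrays minus the mean of the 4 Control arrays, and a probe was called at a Benjamini-Hochberg adjusted p of at most 0.05 in limma over all 41012 probes. Of all probes, 0.563% were called higher and 0.215% lower in Dex. At an unadjusted p under 0.05, 9 members passed, 2 higher and 7 lower, where 5.63% of all probes passed as higher and 4.92% as lower. The median log2 fold change of the 36 genes was -0.07, with 14 higher and 22 lower, and the median of all probes was 0.00. By the signal to noise statistic of the study's methods, 7 members were called, Srebf1 and Fasn as higher and Idi1, Cyp51, Sc4mol, Sc5d and Acaca as lower, against 3.59% of all probes called higher and 3.2% called lower.

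Srebf1 gave normalized log2 signals of 10.81, 10.92, 10.86 and 10.69 on Control arrays 1 to 4 and 14.17, 14.40, 14.13 and 13.95 on Dex arrays 1 to 4 at its brightest probe (A_44_P178448, rn3, chr10:46475858-46475917). Every Dex array was above every Control array, as for 4.6% of all probes, and the gap between the groups was many times the spread within them. The log2 fold change was 3.34 ± 0.16 (SE, n = 4 per group, limma adjusted p = 0.000134), a 10.1-fold rise, and it ranked 19 among all probes by absolute size. The probe printed above gave 8.98, 9.13, 8.84 and 9.02 in Control and 12.79, 12.90, 12.47 and 12.37 in Dex, a log2 fold change of 3.64 (adjusted p = 0.000134). The remaining probe (A_42_P667564, rn3, chr10:46475131-46475190) was dim, at 3.73 to 4.36 in Control and 3.87 to 5.15 in Dex, and its change of 0.46 did not pass (adjusted p = 0.695). On the slide that held both groups, Dex 3 exceeded Control 1 by 3.31 at the brightest probe, and on the larger scan day alone the change was 3.35. With slide as a fixed block, the change was 3.31 and no longer passed (adjusted p = 0.12). In that fit the groups were compared only through Dex 3 and Control 1, which differ in replicate number. The probes do not tell which of the 2 start sites the mRNA came from.

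**Figure D1:**
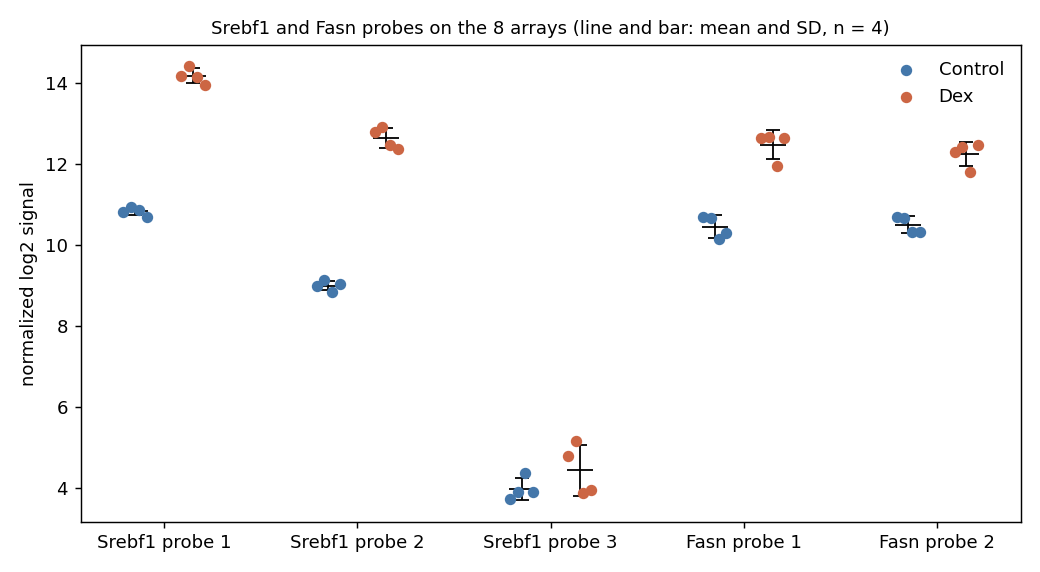
Normalized log2 signal (vertical axis) of each probe of Srebf1 and Fasn on the 4 Control and 4 Dex arrays, with one point per array in replicate order and the mean and SD as a line and bar; signals of different probes are not on a common scale. Srebf1 probes 1 and 2 and both Fasn probes have every Dex array above every Control array, and the dim Srebf1 probe 3 overlaps.

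The other regulators did not pass the test. Srebf2 had a log2 fold change of -0.10 (95% interval -0.41 to 0.21, adjusted p = 0.854), with 7.03 to 7.20 in Control and 6.89 to 7.08 in Dex, and its second probe gave -0.18. Scap, the escort protein, gave 0.24 (adjusted p = 0.731). Insig1, itself a known SREBP target, gave -0.04 at its brightest probe (95% interval -0.46 to 0.38, adjusted p = 0.965) and -0.24 to -0.04 over its 4 probes, none of which was called. Insig2 lay at 8.61 and 8.58 on Dex 1 and 2 and at 7.57 and 7.27 on Dex 3 and 4, against 7.65 to 7.86 in Control, so that its change of 0.23 (adjusted p = 0.858) averaged arrays on both sides of the Control range. Its second probe gave -0.07.

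Of the 17 cholesterol synthesis genes, 0 were called, 5 were higher and 12 lower in Dex, and their median log2 fold change was -0.36. At an unadjusted p under 0.05, 5 genes passed, all of them lower, where 4.92% of all probes passed as lower. In 4 genes every Dex array was below every Control array, as for 4.51% of all probes. Idi1, which isomerizes the isoprenoid building block, had the lowest value of the arm, with 11.60, 12.01, 11.32 and 11.31 on Control arrays 1 to 4 and 10.54, 10.64, 10.41 and 10.14 on Dex arrays 1 to 4. The arrays of the groups did not overlap, and the log2 fold change was -1.13 ± 0.21 (SE, n = 4 per group), just short of passing the threshold (limma adjusted p = 0.0664). Its second probe gave -1.22 (adjusted p = 0.171), also with no overlap. Idi1 passed in 6 of 23 alternatives, among them normexp background correction (adjusted p = 0.0154) and the test without dim probes (adjusted p = 0.034). It did not pass in the other 17, such as the replicate block (adjusted p = 0.121), 75th percentile scaling (adjusted p = 0.338), slide as a fixed block (adjusted p = 0.771) and each fit without a single array (adjusted p = 0.116 to 0.186).

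Sqle, squalene epoxidase, a rate-limiting enzyme, had signals of 9.70, 10.20, 9.60 and 9.48 in Control and 9.39, 9.45, 8.54 and 8.37 in Dex, a log2 fold change of -0.80 (adjusted p = 0.389). Cyp51, lanosterol demethylase, had 9.02, 9.38, 9.27 and 9.13 in Control and 8.78, 8.76, 8.46 and 8.29 in Dex, a change of -0.63 (adjusted p = 0.216). Sc4mol, a methylsterol oxidase, had 12.43, 12.68, 12.25 and 12.33 in Control and 12.06, 12.06, 11.77 and 11.85 in Dex, a change of -0.49 (adjusted p = 0.311). These 3 genes and Idi1 were those with no overlap between the groups, and in each of the 4 the values of Dex 3 and Dex 4 were the lowest of the 8. Sc5d, a sterol desaturase, was at -0.44 (adjusted p = 0.408) and Fdft1, squalene synthase, at -0.81 (adjusted p = 0.497). Fdft1 lay at 6.94 and 7.11 on Dex 1 and 2 and at 5.67 and 5.69 on Dex 3 and 4, against 6.96 to 7.41 in Control.

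Among the early enzymes, Hmgcs1, HMG-CoA synthase, had a log2 fold change of -0.38 at its brightest probe, with overlap, and -0.34 at the second, without overlap. Fdps, farnesyl diphosphate synthase, was at -0.36, Acat2, which joins acetyl-CoA units, at -0.09, and the kinases Mvk and Pmvk at 0.02 and 0.29. Mvd, the decarboxylase after them, was at 0.16. Of the later enzymes, Lss, which closes the sterol rings, was at -0.38, Hsd17b7 at -0.27, Ebp at 0.00, Nsdhl at 0.02 and Dhcr7, the final reductase, at 0.39. None of these 11 genes passed an unadjusted p of 0.05, and Dhcr7 and Idi1 marked the ends of the arm's range.

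**Figure D2:**
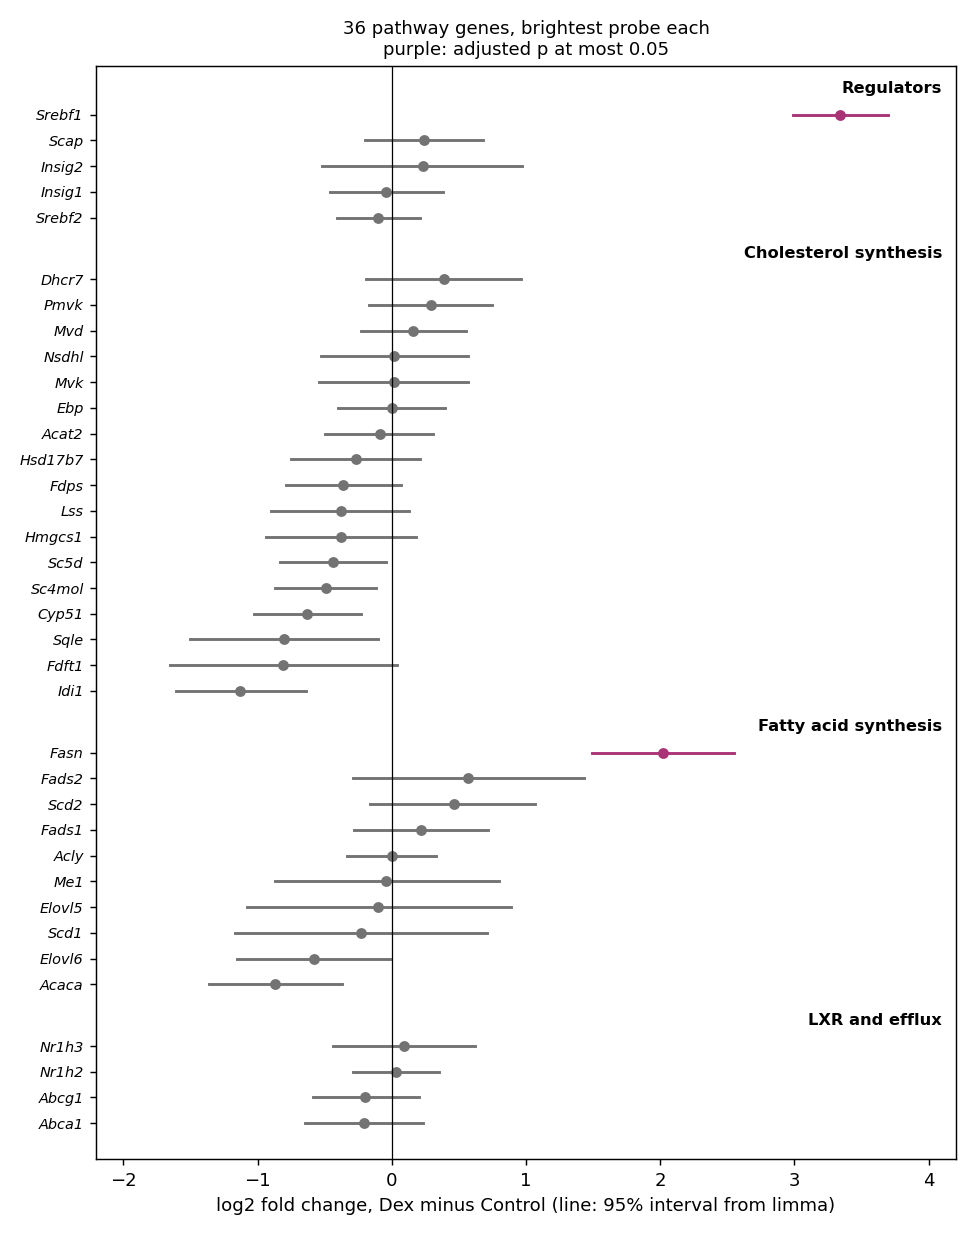
Log2 fold change, Dex minus Control, of the 36 genes at the brightest probe (horizontal axis) with the 95% interval from limma, grouped by role; purple marks genes called at an adjusted p of at most 0.05. Srebf1 at 3.34 and Fasn at 2.02 stand to the right, and the cholesterol synthesis genes run from -1.13 to 0.39.

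Of the 10 fatty acid synthesis genes, Fasn was called higher and 9 were not called. Their median log2 fold change was -0.02, with 4 higher and 6 lower. Fasn, the multi-domain fatty acid synthase, had signals of 10.69, 10.67, 10.15 and 10.28 on Control arrays 1 to 4 and 12.64, 12.66, 11.94 and 12.64 on Dex arrays 1 to 4. Its log2 fold change was 2.02 ± 0.23 (SE, n = 4 per group, limma adjusted p = 0.00851, rank 129 among all probes by absolute size), with every Dex array above every Control array. The second Fasn probe gave 1.74 (adjusted p = 0.00913), and the 2 probes agree in direction and call, but with the replicate number as a block the brighter passed (adjusted p = 0.0415) and the second did not (adjusted p = 0.0634). The brighter probe no longer passed after 75th percentile scaling (adjusted p = 0.0922) or without Control 4 (adjusted p = 0.0521). On the slide that held both groups Dex 3 exceeded Control 1, an array of unlike number, by 1.25. This is also the change with slide as a fixed block (adjusted p = 0.771), which rests on that 1 pair.

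Acaca, acetyl-CoA carboxylase, which makes the malonyl-CoA that fatty acid synthase uses, went the other way at its brightest probe. It had 11.46, 11.68, 11.05 and 10.92 in Control and 10.63, 10.54, 10.27 and 10.20 in Dex, without overlap, and a log2 fold change of -0.87 (adjusted p = 0.16). Its second probe gave 0.34 (adjusted p = 0.896), with 6.68 and 6.33 on Dex 1 and 2, 7.12 to 7.62 in Control and at least 8.92 on Dex 3 and 4, so the probes of Acaca disagree in sign. Elovl6, a fatty acid elongase, was at -0.58 (adjusted p = 0.457) and its second probe at -0.59. Acly, which supplies acetyl-CoA from citrate, was at 0.00 (95% interval -0.33 to 0.33).

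The desaturases did not pass. Scd2 was at 0.46 (adjusted p = 0.629), with its other probes at 0.22 and 0.39, Fads2 at 0.57 (adjusted p = 0.676) and Fads1 at 0.22. Scd1, above background on only 2 of the 4 Dex arrays, was at -0.23. Me1, malic enzyme, a source of NADPH, was at -0.04 with its dim second probe at 0.25, and Elovl5 was at -0.10. Elovl5 gave 6.15 and 6.20 on Dex 1 and 2 and 4.60 and 4.57 on Dex 3 and 4, against 5.25 to 5.82 in Control.

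**Figure D3:**
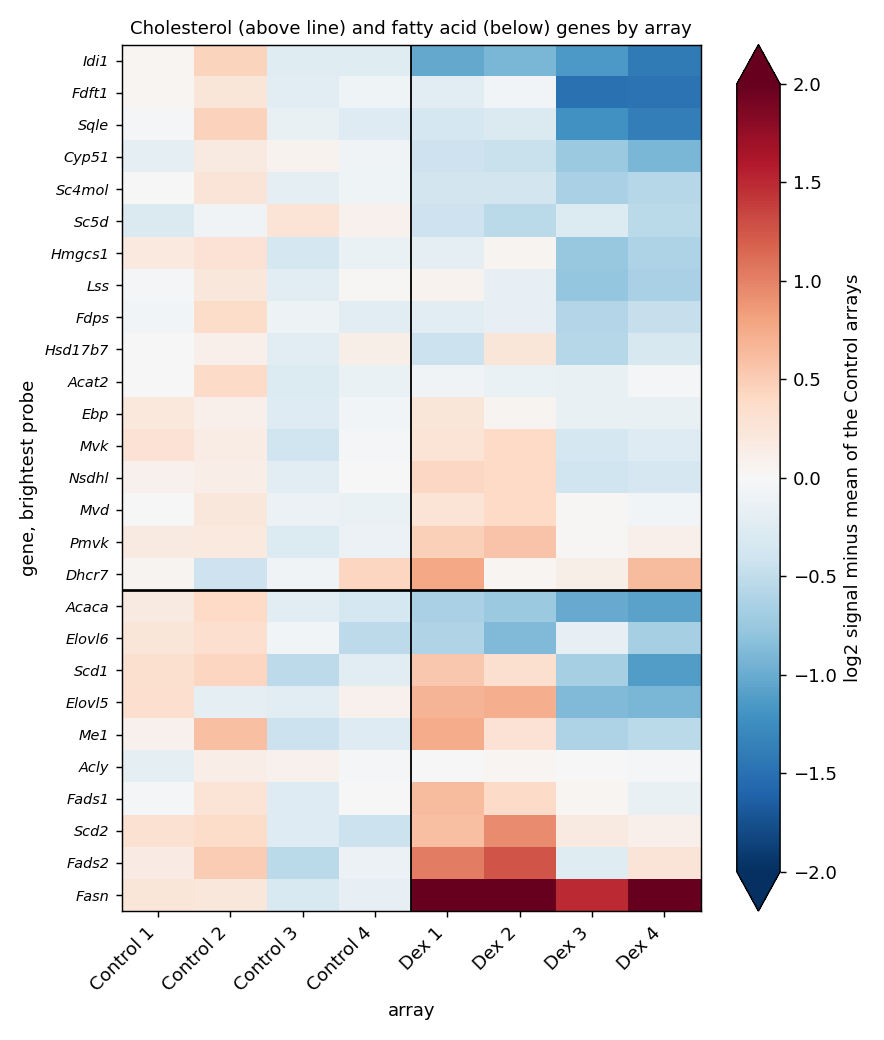
Normalized log2 signal minus the mean of the 4 Control arrays (color, limited to 2 in each direction) for the 17 cholesterol and 10 fatty acid synthesis genes (rows, brightest probe) on the 8 arrays (columns). Fasn is high on all Dex arrays, Idi1 and Acaca are low on all, and Fdft1 and Elovl5 are low on Dex 3 and Dex 4.

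The change of Srebf1 was set beside that of the 27 enzymes of both arms. The log2 fold change of Srebf1 exceeded that of each enzyme, by 1.32 for Fasn and by up to 4.47 for Idi1. In every one of the 27, the signal of Srebf1 minus that of the enzyme was higher on every Dex array than on every Control array, but the same held for 99.1% of all probes, so this count says little of the enzymes. Of the 27 enzymes, 9 were higher and 18 lower in Dex, with a median of -0.10, and Fasn alone was called.

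The median of the cholesterol arm on each array, relative to the mean of the Control arrays, was 0.01, 0.22, -0.21 and -0.08 on Control 1 to 4 and -0.17, -0.05, -0.56 and -0.46 on Dex 1 to 4. The Dex array was lower than the Control array of the same number in all 4 pairs, although Dex 1 and Dex 2 lay within the Control range. The fatty acid arm gave 0.21, 0.35, -0.26 and -0.19 on Control 1 to 4 and 0.61, 0.35, -0.21 and -0.35 on Dex 1 to 4, with no common direction. The median of all probes, on the same scale, stayed between -0.06 and 0.10.

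**Figure D4:**
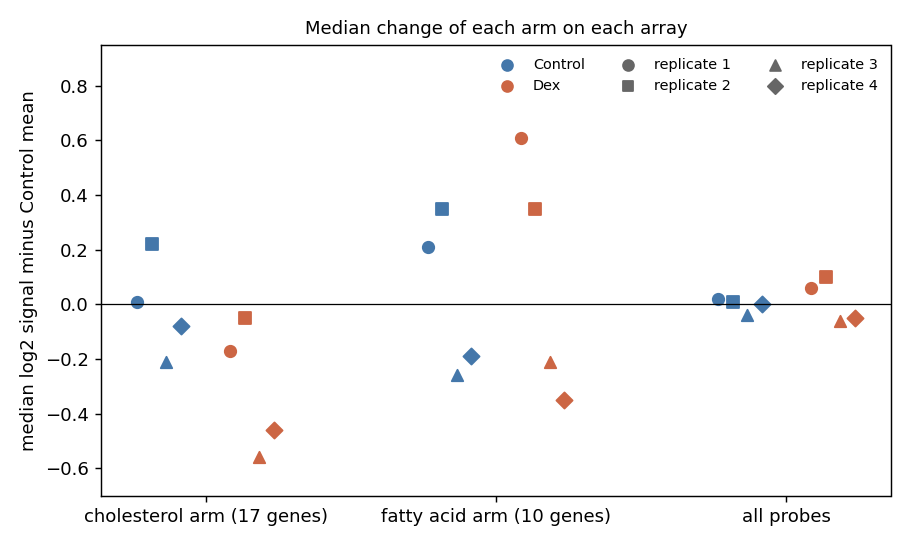
Median over the genes of the cholesterol arm, the fatty acid arm and all probes (horizontal axis) of log2 signal minus the Control mean (vertical axis) on each array, with color for group and marker shape for replicate number. In the cholesterol arm Dex 3 and Dex 4 lie at -0.56 and -0.46 and Dex 1 and Dex 2 at -0.17 and -0.05.

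Arrays of replicates 1 and 2 differed from those of 3 and 4 in both groups. In 26 of the 36 genes (72.2%) Dex 1 and Dex 2 were both above Dex 3 and Dex 4, against 48.3% of all probes, and the reverse was seen in 1 gene, Insig1 (2.78%), against 31% of all probes. In Control, replicates 1 and 2 were both above 3 and 4 in 22 of the 36 genes (61.1%), against 27.5% of all probes. The reverse was seen in 1 gene (2.78%), against 22.7% of all probes. Replicates 1 and 2 were above 3 and 4 in both groups in 18 of the 36 genes, and in 7435 of 41003 probes. Without Dex 1 and 2, 9 members were called, Srebf1 and Fasn as higher and Idi1, Fdft1, Sqle, Lss, Cyp51, Acaca and Elovl5 as lower, where 7.87% of all probes were called higher and 9.55% lower, and the cholesterol arm median was -0.44. Without Dex 3 and 4, 5 were called, Srebf1, Fasn, Insig2 and Fads2 as higher and Idi1 as lower, where 9.93% of all probes were called higher and 8.09% lower, and the cholesterol arm median was -0.09 while that of the fatty acid arm was 0.51. Both fits called many more probes over the whole array than the test on all 8 arrays did, so the larger counts are not particular to the list. They also set the remaining Dex arrays against all 4 Control arrays, so their values hold the difference between Control replicates as well. Srebf1, Fasn and Idi1 were called in both of these fits.

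With arrays of like number kept together, the cholesterol arm median was -0.39 over replicates 3 and 4 of both groups and -0.28 over replicates 1 and 2, with 12 of the 17 genes lower in each, and that of the fatty acid arm was -0.09 and 0.27. Srebf1 was at 3.26 and 3.42 and Fasn at 2.07 and 1.97 in these fits of 2 arrays per group. Over replicates 1 and 2, limma called Srebf1 and Fasn (adjusted p = 0.0478 for each) and no other member, where 0.2% of all probes were called higher and 0.4% lower. Over replicates 3 and 4, 0 of all probes were called (adjusted p = 0.0744 for Srebf1, Fasn and Idi1), while 13 members and 31.9% of all probes had an unadjusted p under 0.05. The part of the lower number of probes above background on Dex 1 and 2 in these values was not tested.

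The 4 genes of the LXR and efflux group did not pass, and 0 had an unadjusted p under 0.05. Nr1h3 and Nr1h2, which encode the receptors LXR alpha and beta, had log2 fold changes of 0.09 and 0.03. Abca1 and Abcg1, cholesterol exporters and known LXR targets, were at -0.21 and -0.20, with Abca1 above background on only 2 of the 4 Dex arrays. The 95% interval of Abcg1 was -0.59 to 0.20.

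Beyond the 36 genes, 57 further genes of SREBP processing, sterol and fatty acid metabolism and LXR control were listed, and 48 were on the array. Of these, 25 were higher and 23 lower, their median log2 fold change was 0.01 and 0 were called by limma. At an unadjusted p under 0.05, 2 passed, Dgat2 and Pltp, both higher, where 5.63% of all probes passed as higher and 4.92% as lower. By the signal to noise statistic, which called 3.59% of all probes higher and 3.2% lower, 3 were called, so neither count sets this list apart. Dgat2, which makes triglyceride, had 7.71 to 7.97 in Control and 8.26 to 8.86 in Dex, a change of 0.76 (adjusted p = 0.137). The next highest were the elongases Elovl4 at 0.69 (adjusted p = 0.685) and Elovl2 at 0.62 (adjusted p = 0.622). Among the lowest were the sterol exporter Abcg8 at -0.38 and Acsl3, which activates fatty acids, at -0.36. Elovl2 was above background on only 2 Control and 3 Dex arrays, and its second probe gave -0.03. Abcg8 was above background on only 3 Control and 2 Dex arrays, and its second probe gave 0.46.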

How the data were processed

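Labeled RNA was hybridized by the authors, who extracted spot intensities with Agilent Feature Extraction (version 9.5.3.1, background subtracted). Deposited intensity values are not normalized between arrays. The authors also deposited log2 values, quantile normalized and summarized per probe by median polish. Scanner flags per spot (0 or 1) were deposited too. Probe positions are on build rn3 per the file headers. Here control spots and outlier-flagged spots were left out of 43379 non-control spots, and the authors' steps were repeated from the intensities, giving 41012 probes that differed from the deposited values by a median of at most 0.00158. No spot was saturated.

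limma (version 3.58.1, R version 4.3.3) was run two-sided with no block (lmFit, eBayes), adjusted over all probes. The brightest probe stands for a gene, and 34 of the 36 members were above background on all arrays. The text names all members, other pathway genes that were called or had the 3 largest changes of each sign, and Tsc22d3; Pltp and single cell type markers were named after their values were seen, and 1 gene that this rule names is not reported here. The signal to noise statistic was set against the values of all probes together in the 70 possible assignments of the arrays, and a probe was called where its nominal p was at most 0.01 in 1 tail, in either direction, with a fold change of at least 1.2. The methods name random permutations of samples or probes, so this is a stand-in for their test. Members and lists were chosen with earlier results of these data known. Deviations of same-numbered arrays from their group means correlated at 0.40, 0.13, 0.55 and 0.18, and since all exceed 0.1 the arrays were treated as paired by number in the blocked fit, though arrays of unlike number correlated at up to 0.40. Arrays were taken as replicates as labeled, and the values do not tell whether arrays share a preparation. The number of arrays limits the precision. The procedures were tested on simulated data, where limma missed some changed probes at every size tried and more of the small changes, so a member that was not called is not shown to be unchanged. A criterion set for this recovery was narrowly missed and was replaced after the result was seen. Alternatives covered blocks, scaling, background, filters and left-out arrays.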

Additional observations from a re-analysis of the deposited data

Results flagged for a closer look

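In each of 72 groups of 4 arrays, 36 genes in Control and in Dex, the most extreme array was set against the others by Dixon's ratio, the gap to the nearest array over the whole range, with the 95% limit for 4 samples. Chance flags about 1 in 20 groups. In 3 groups the ratio passed, all of them Dex. For Fasn it was 0.966, with Dex 3 at 11.94 and the other Dex arrays at 12.64 to 12.66, still above every Control array. For Srebf2 it was 0.867, with Dex 3 at 6.89 against 7.06 to 7.08. For Abcg1 it was 0.869, with Dex 4 at 11.88 against 12.15 to 12.19.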

How the results depend on the processing

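Srebf1 kept its direction under every alternative run and lost its call in 2 of them. With slide as a fixed block its log2 fold change was 3.31 (adjusted p = 0.12). Without replicates 1 and 2 of both groups it was 3.26 (adjusted p = 0.0744). With the mean of all Srebf1 probes, the dim one among them, the change was smaller, at 2.48 (limma adjusted p = 0.00176). The number of members called, 2 in the report, was 0 with slide as a fixed block and 5 with slide as a random block. It was 1 with 75th percentile scaling and 7 by the signal to noise statistic. With slide as a fixed block, 4 members and 4.34% of all probes had an unadjusted p under 0.05. That fit set the groups against each other only through Dex 3 and Control 1, arrays of unlike number on 1 slide. The random block had a negative correlation within slides (-0.235), and its standard error for Srebf1 was 0.11 against 0.16 in the report. The number called ranged from 1 (without Control replicate 4) to 2 when single arrays were left out. It was 9 without Dex replicates 1 and 2 and 5 without Dex replicates 3 and 4, and with both groups cut to like numbers it was 0 without replicates 1 and 2 and 2 without replicates 3 and 4. These fits and those by scan day were chosen after seeing the data. With the replicate number as a block it stayed at 2, and no member's call changed at the brightest probe. The median of the cholesterol arm was below 0 under every alternative run, from -0.56 with slide as a fixed block to -0.09 without Dex replicates 3 and 4. That of the fatty acid arm had no stable sign, from -0.41 with slide as a fixed block to 0.51 without Dex replicates 3 and 4. No called member changed sign. Over the whole array 319 probes were called, against 81 with the replicate block, 1 with slide as a fixed block, 1838 with slide as a random block, 166 with 75th percentile scaling, 915 with normexp correction, 562 without dim probes, 96 to 249 without single arrays, 190 with scan day as a block, 56 on the larger scan day alone, 2784 by the signal to noise statistic, 7143 and 7388 without Dex 1 and 2 or Dex 3 and 4, and 0 and 246 without those replicates of both groups. The cause was not tested. Scd1 and Abca1 were above background on only 2 of the 4 Dex arrays, and Elovl5, Scd1, Fdft1, Fads2, Me1 and Insig2 had standard errors of 0.32 to 0.43.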
